A study of Danio rerio with 6 samples.

Results

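The enzymes that split glucose, rebuild it and store it as glycogen were followed as a set of 53 genes, among 32520 genes counted by RNA-seq in zebrafish intestinal epithelial cells at 3 and 5 days post fertilization (dpf). The set began as 56 gene names. Of these, 25 matched an Ensembl gene name with letter case ignored, and 28 matched after the suffix that marks a gene copy was dropped. The names pgk1, pcxa and pcxb matched none and are not among the 53. Many symbols in the annotation are written in human style and shared by several zebrafish copies, so copies are told apart below by chromosome and Ensembl ID and not by their a and b names. The name g6pc1a.2 led to a pair of genes with the symbol G6PC1. The set covers 28 genes of the glycolytic steps, 2 lactate dehydrogenase genes, 7 genes of gluconeogenesis, 11 of glycogen metabolism, 2 regulators of phosphofructokinase and 3 genes of fructose and galactose entry.

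Both ages were larvae that are wild type apart from the knock-in allele TgKI(cldn15la:tdTomato)pd1249, which places the red fluorescent protein tdTomato at cldn15la, which encodes a claudin found in gut epithelium. There were 3 libraries per age, each from a pool of larvae whose heads had been removed and whose bodies had been dissociated with trypsin and collagenase before sorting by flow cytometry. Which cells were collected therefore depended on cldn15la being expressed in them. Non-transgenic controls named in the design were not analysed here, and all libraries carried batch 1.

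Glycolysis breaks glucose down to pyruvate, and most of its steps run in either direction. Gluconeogenesis makes glucose by running those steps backwards and by bypassing the irreversible ones with enzymes of its own, phosphoenolpyruvate carboxykinase, fructose bisphosphatase and glucose-6-phosphatase. Glycogen synthase and glycogen phosphorylase build and break down the stored polymer. Many of the steps have isozymes that in mammals are typical of liver, muscle or brain, and the intestine of mammals expresses several of the liver types and can itself release glucose.

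Depth ran from 102653637 to 125456069 counts per library, so counting error is small for most of these genes. Genes of the mitochondrial chromosome took 29.2% of the counts in 5 dpf replicate 1 and 7.91 to 11.4% in the other libraries. In log2 CPM, counts relative to the library total after TMM scaling between libraries, 5 dpf replicate 1 correlated at 0.923 and 0.928 with the other 5 dpf libraries, against 0.977 to 0.984 for every other pair of one age. Summed enterocyte markers, 14 genes of which 9 were called higher and 1 lower, stood at 3616, 4357 and 3641 CPM at 3 dpf and at 20678, 7720 and 8032 CPM at 5 dpf, in replicate order. Skeletal muscle markers summed to 2221, 2150 and 3653 CPM at 3 dpf and to 133, 1396 and 1477 CPM at 5 dpf. Both sums put 5 dpf replicate 1 at an extreme, highest for enterocyte and lowest for muscle. The labels of 3 dpf replicate 3 disagree, with 3 dpf in the title and 4 dpf as treatment, and the title was followed. The sorting gene cldn15la measured 682, 690.4 and 525 CPM at 3 dpf, against 900.4, 457 and 347 CPM at 5 dpf, and was not called (edgeR adjusted p = 0.779). It was called lower at 5 dpf without 5 dpf replicate 1 (log2 fold change -0.65, edgeR adjusted p = 0.0281) and on leaving out 3 dpf replicate 3 as well (log2 fold change -0.79, edgeR adjusted p = 0.00869).

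More of the genes were higher at 5 dpf than lower. Of the 53 genes, 51 had enough counts to be tested, and 22 of them were higher at 5 dpf, 6 were lower and 23 did not pass (edgeR's quasi-likelihood test, Benjamini-Hochberg adjusted p under 0.05 over all 22386 genes tested). That is 54.9% of the tested members, against a background of 32.1% of all genes tested. Over all genes 18.1% were called higher and 14.1% lower. The median log2 fold change, 5 dpf over 3 dpf, was 0.83 for the members and 0.09 for all genes tested. Between the ages CPM did not overlap for 30 members that were higher and 7 that were lower at 5 dpf, beside a background of 50.3% of all genes in either direction. At least a 2-fold change was called for 19 members that were higher (background 16.4%) and 5 that were lower (background 8.68%). Together the 53 genes took 0.616, 0.665 and 0.511% of all counts in the 3 dpf libraries and 1.48, 0.897 and 1.13% in the 5 dpf libraries, so every 5 dpf library lay above every 3 dpf library.

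**Figure D1:**
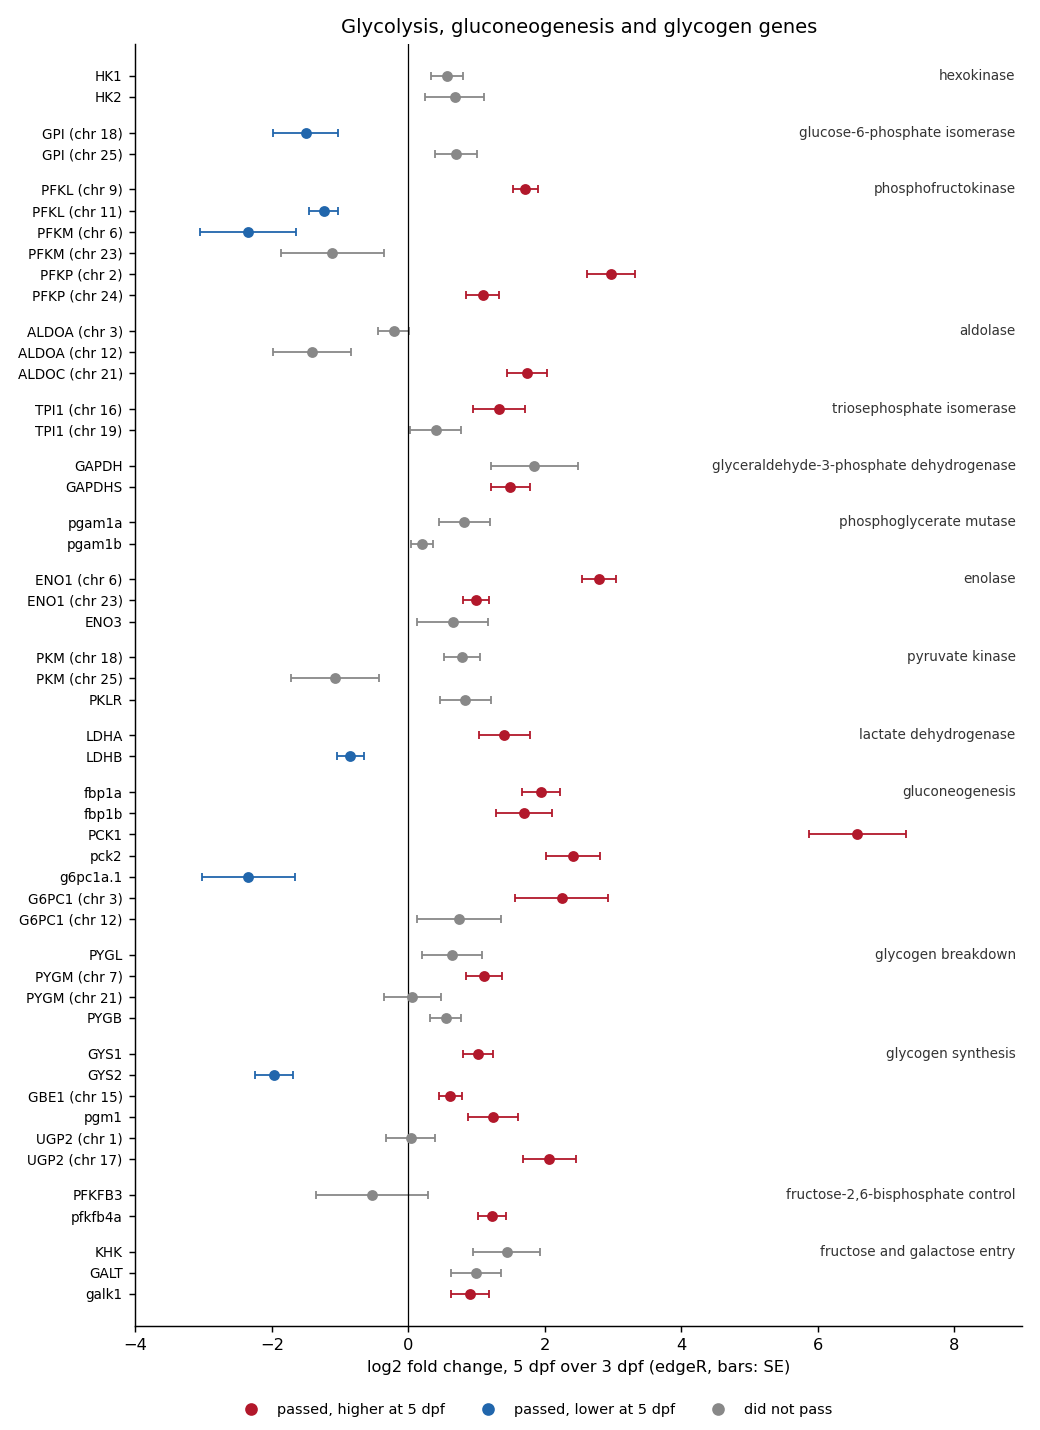
Log2 fold change of CPM, 5 dpf over 3 dpf, for 49 of the 51 tested genes, ordered by their step in the pathway, with bars of 1 standard error from edgeR on 3 libraries per age. PCK1 lies farthest to the right at 6.58, and in the phosphofructokinase, lactate dehydrogenase, gluconeogenesis and glycogen synthesis groups genes that passed lie on both sides of 0.

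Leaving out 5 dpf replicate 1 gave 27 members higher and 8 lower, with a background of 45.8%, and all 28 calls remained. Leaving out 3 dpf replicate 3 as well gave 26 higher and 10 lower, with a background of 51.8%. DESeq2 called 27 members higher and 7 lower, with a background of 40.9%. Of the 28 calls, 11 held without any of the 6 libraries in turn, and 17 ended without 3 dpf replicate 1, which left 9 higher and 2 lower. Calls over all genes were also fewest without that library, with the counts given at the end, so such losses are not particular to the members. The share of all called genes that held in every one of these fits is not given here. The 11 were PCK1, pck2, fbp1a, PFKL on chromosome 9, PFKL on chromosome 11, PFKP on chromosome 2, ALDOC on chromosome 21, ENO1 on chromosome 6, UGP2 on chromosome 17, pfkfb4a and GYS2. In sorted pools, more cells of a type and more RNA per cell cannot be told apart. Values below are CPM in replicates 1, 2 and 3 of each age, means are given with SD (n = 3), and rose and fell are used only of genes that passed.

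Gluconeogenesis held the member with the largest change. PCK1 (ENSDARG00000013522, chromosome 6, 60055168 to 60062097 of GRCz11) encodes the cytosolic phosphoenolpyruvate carboxykinase, which makes phosphoenolpyruvate from oxaloacetate and is a main control point of glucose synthesis. It measured 21.8, 20.8 and 16.2 CPM at 3 dpf, against 3737, 800.1 and 1100.4 CPM at 5 dpf. The lowest 5 dpf library thus lay far above the highest 3 dpf library, and 5 dpf replicate 1 stood well above the other libraries of its age. PCK1 rose 95.7-fold, from 19.6 ± 2.97 to 1879 ± 1616 CPM (log2 fold change 6.58, SE 0.71, edgeR adjusted p = 0.00185). Without 5 dpf replicate 1 its log2 fold change was 5.60 (edgeR adjusted p = 3.11e-05). In level per kilobase of exon PCK1 moved from rank 7154 to rank 124 of the 22386 genes, and its log2 fold change ranked 126.

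pck2 (ENSDARG00000020956, chromosome 24, 12920019 to 12938922), the mitochondrial form of the same enzyme, rose less. It measured 59.3, 78.5 and 46.7 CPM at 3 dpf, against 520.2, 221 and 241 CPM at 5 dpf, with no overlap between the ages. Its log2 fold change was 2.41 (SE 0.40, edgeR adjusted p = 0.0053). In level per kilobase, PCK1 stood at 0.382 times pck2 at 3 dpf and at 5.8 times at 5 dpf, both as geometric means over libraries. At 3 dpf pck2 was the more abundant in each library, and at 5 dpf PCK1 was.

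Both fructose bisphosphatase genes, which reverse the phosphofructokinase step, rose as well. fbp1b (ENSDARG00000020364, chromosome 5, 35458190 to 35462126) measured 117, 144 and 102 CPM at 3 dpf, against 642, 214 and 317 CPM at 5 dpf (log2 fold change 1.69, SE 0.41, edgeR adjusted p = 0.0186). fbp1a (ENSDARG00000021366, chromosome 5, 44833313 to 44843738) measured 7.24, 8.14 and 6.82 CPM at 3 dpf, against 39.9, 21.1 and 24.3 CPM at 5 dpf (log2 fold change 1.94, SE 0.28, edgeR adjusted p = 0.00368). Neither gene overlapped between the ages, and fbp1b was the more abundant per kilobase at both. The fbp1b call was lost on leaving out any 1 of the 3 dpf libraries (edgeR adjusted p from 0.0562 to 0.0809).

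The 3 glucose-6-phosphatase genes, whose enzyme releases free glucose at the end of the pathway, did not move together. The abundant copy, G6PC1 on chromosome 12 (ENSDARG00000013721, 6041575 to 6048286), measured 103, 120.4 and 49.3 CPM at 3 dpf, against 308, 69 and 78.6 CPM at 5 dpf. These ranges overlapped and the gene did not pass (log2 fold change 0.74, SE 0.62, edgeR adjusted p = 0.39). Without 5 dpf replicate 1 its log2 fold change was -0.295 (edgeR adjusted p = 0.501). Without both 5 dpf replicate 1 and 3 dpf replicate 3 its log2 fold change was -0.62 (edgeR adjusted p = 0.0144). Its neighbour g6pc1a.1 (ENSDARG00000031616, chromosome 12, 6023490 to 6033854) measured 4.47, 6.13 and 0.898 CPM at 3 dpf, against 1.09, 0.604 and 0.584 CPM at 5 dpf. It was called lower (log2 fold change -2.35, SE 0.68, edgeR adjusted p = 0.0346), although 3 dpf replicate 3 lay inside the 5 dpf range. G6PC1 on chromosome 3 (ENSDARG00000014967, 32906082 to 32912787) was nearly silent, with 90 counts over the 3 dpf libraries and 490 over the 5 dpf libraries, and was called higher with overlapping ages (log2 fold change 2.25, SE 0.68, edgeR adjusted p = 0.0403). The g6pc1a.1 call ended on leaving out any 1 of replicates 1 and 2 at 3 dpf and 2 and 3 at 5 dpf (edgeR adjusted p from 0.0905 to 0.116), and that of the chromosome 3 copy was lost on leaving out any library other than 5 dpf replicate 1 (edgeR adjusted p from 0.0525 to 0.142).

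**Figure D2:**
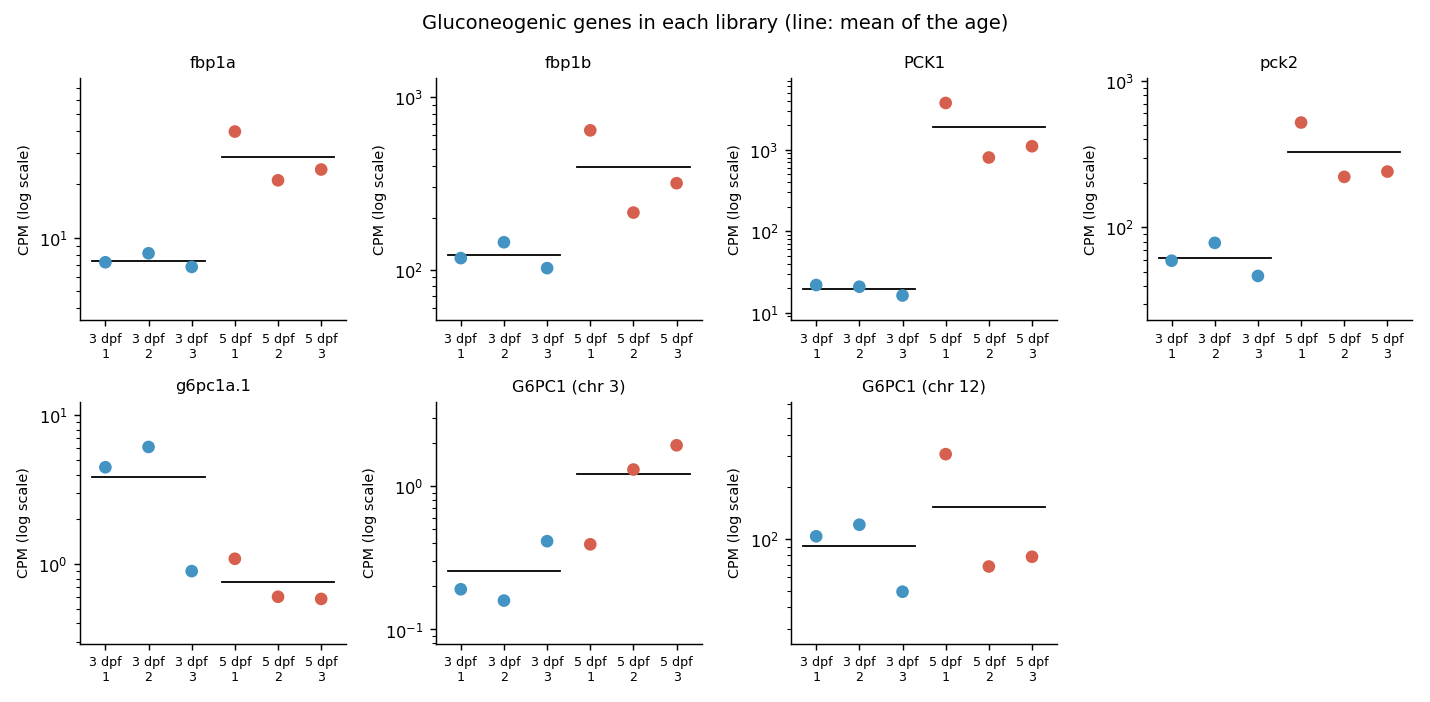
CPM on a log scale of the 7 gluconeogenic genes in each of the 6 libraries, with 3 dpf in blue, 5 dpf in red and a line at the mean of each age. For fbp1a, fbp1b, PCK1 and pck2 every 5 dpf point lies above every 3 dpf point, whereas the points of the 3 glucose-6-phosphatase genes overlap.

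Other gluconeogenic tissues could in principle be present in sorted pools of larval bodies, so their markers are set beside these genes. Hepatocyte markers, 12 genes, summed to 57.1 to 112 CPM at 3 dpf and to 79.8 to 104 CPM at 5 dpf, and pronephric tubule markers, 11 genes, to 739.5 to 1150.2 CPM and 1119 to 2398 CPM. Of the tested hepatocyte markers, 3 of 11 were called higher and 1 lower, and of the pronephric markers 3 of 11 were higher. Markers of the yolk syncytial layer, 8 genes that include lipoprotein genes also used by enterocytes, summed to 91.5 to 200.4 CPM at 3 dpf and to 289 to 995 CPM at 5 dpf. Of these 8, 4 were called higher and 0 lower. Most of that sum came from MTTP, which is also on the enterocyte list, apoeb, DGAT2 and APOB. MTTP averaged 127 ± 48.5 CPM at 3 dpf and 183 ± 109 CPM at 5 dpf, and apoeb 15.9 ± 4.88 and 288 ± 207 CPM. TTR, rbp4l, vtg1 and mxtx2 averaged no more than 1.45 CPM at either age. The hepatocyte and pronephric sums overlapped between the ages, and the yolk syncytial sum did not. Most of the pronephric sum came from an SLC20A1 copy (ENSDARG00000010641) and CDH17. The SLC20A1 copy averaged 539 ± 164 CPM at 3 dpf and 564 ± 301 CPM at 5 dpf, and CDH17 337 ± 51.8 and 742 ± 270 CPM. SLC12A1, SLC12A3 and both PAX2 copies of that list averaged no more than 1.1 CPM at either age. The 3 called higher were CDH17, SLC13A1 and the other SLC20A1 copy (edgeR adjusted p = 0.0265, 0.0215 and 0.0171). SLC13A1 averaged 1.38 ± 1.00 CPM at 3 dpf and 14.1 ± 14.5 CPM at 5 dpf, and that SLC20A1 copy 20.4 ± 7.39 and 56.6 ± 18.7 CPM. Both SLC4A4 copies and TRPM7, with averages from 16.8 to 128 CPM, did not pass. Within the hepatocyte list apoa2 had the highest level, averaging 43 ± 14.4 CPM at 3 dpf and 38.6 ± 3.48 CPM at 5 dpf. Its other genes moved in both directions. fabp10a, 1 of the 3 called higher, rose from 0.519 ± 0.361 to 9.13 ± 0.937 CPM (edgeR adjusted p = 0.00346). FGG, the 1 called lower, fell from 14.5 ± 5.71 to 2.72 ± 0.519 CPM (edgeR adjusted p = 0.00423). No marker of these lists was at 0 in all libraries, and their part in the gluconeogenic changes was not tested.

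At the entry to glycolysis, HK1 and HK2 encode hexokinases, which phosphorylate glucose. HK1, the more abundant of these per kilobase, measured 58.7, 42.3 and 53.1 CPM at 3 dpf, against 84.6, 87.2 and 56.3 CPM at 5 dpf, with overlapping ages and an adjusted p of 0.105 from edgeR. HK2 did not pass either (log2 fold change 0.68, edgeR adjusted p = 0.267).

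Glucose-6-phosphate isomerase came almost wholly from GPI on chromosome 25, which held 97.5 ± 0.682% of the step's level per kilobase at 3 dpf and 99.4 ± 0.447% at 5 dpf. That copy measured 181, 176 and 135 CPM at 3 dpf, against 386, 202 and 210.0 CPM at 5 dpf, and did not pass (log2 fold change 0.70, SE 0.30, edgeR adjusted p = 0.117). The minor copy on chromosome 18 (ENSDARG00000103826) fell in mean CPM from 3.25 ± 0.399 to 1.14 ± 0.617 (log2 fold change -1.51, SE 0.48, edgeR adjusted p = 0.0476). Its call was lost on leaving out any library other than 5 dpf replicate 1 (edgeR adjusted p from 0.0603 to 0.123).

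Phosphofructokinase, the committed step, exchanged its main copy. PFKL on chromosome 9 (ENSDARG00000060504, 52628899 to 52678995) measured 16.7, 19.6 and 19.5 CPM at 3 dpf, against 52.4, 63 and 68 CPM at 5 dpf. PFKL on chromosome 11 (ENSDARG00000099755, 44910615 to 44931962) measured 38.2, 37.9 and 30.4 CPM at 3 dpf, against 14, 12.4 and 18.5 CPM at 5 dpf. The liver-type copies thus crossed, each without overlap between the ages. The chromosome 9 copy rose (log2 fold change 1.72, SE 0.19, edgeR adjusted p = 0.00193) and the chromosome 11 copy fell (log2 fold change -1.24, SE 0.22, edgeR adjusted p = 0.0064). Of the level per kilobase summed over the 6 phosphofructokinase genes, the chromosome 9 copy made up 22.4 ± 2.47% at 3 dpf and 57.2 ± 0.655% at 5 dpf, and the chromosome 11 copy 63 ± 5.97% and 20.7 ± 3.33%. The sum over the 6 genes stood at 1.29 times its 3 dpf level at 5 dpf, without overlap.

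The platelet-type and muscle-type phosphofructokinase genes were minor. PFKP on chromosome 2 (ENSDARG00000012801) measured 1.36, 1.44 and 2.69 CPM at 3 dpf, against 11.6, 17.4 and 14.1 CPM at 5 dpf, and rose 7.82-fold (log2 fold change 2.97, SE 0.35, edgeR adjusted p = 0.0022). PFKP on chromosome 24 rose in mean CPM from 7.43 ± 1.87 to 15.8 ± 1.46 (log2 fold change 1.09, SE 0.24, edgeR adjusted p = 0.0142). PFKM on chromosome 6 (ENSDARG00000060797) measured 2.21, 1.99 and 2.88 CPM at 3 dpf, against 0.0786, 0.843 and 0.443 CPM at 5 dpf, and fell (log2 fold change -2.35, SE 0.71, edgeR adjusted p = 0.0392). The other muscle-type copy, on chromosome 23, had overlapping ages and did not pass (edgeR adjusted p = 0.293). The call of PFKP on chromosome 24 ended on leaving out any 1 of replicates 1 and 2 at 3 dpf and 2 at 5 dpf (edgeR adjusted p from 0.0529 to 0.0626), and that of PFKM on chromosome 6 without any 3 dpf library or without 5 dpf replicate 3 (edgeR adjusted p from 0.0825 to 0.105).

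**Figure D3:**
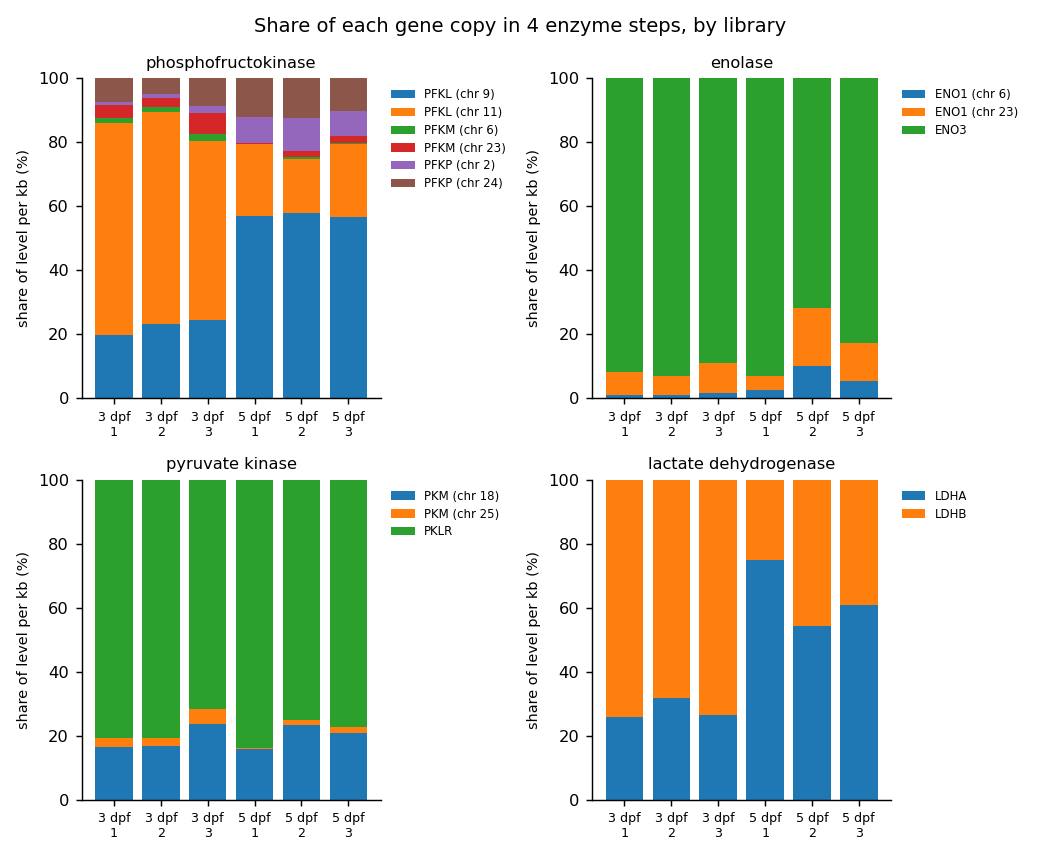
Share of each gene copy in the level per kilobase summed over all genes of a step, in percent, as stacked bars for the 6 libraries in each of 4 enzyme steps. The PFKL copies on chromosomes 9 and 11 and the lactate dehydrogenases LDHA and LDHB change places between the ages, while PKLR and ENO3 hold most of their steps in every library.

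Aldolase splits fructose bisphosphate into triose phosphates. ALDOC on chromosome 21 (ENSDARG00000019702), of the type known from brain, measured 32, 25.9 and 42.4 CPM at 3 dpf, against 116, 142 and 77.5 CPM at 5 dpf, and rose (log2 fold change 1.74, SE 0.29, edgeR adjusted p = 0.00578). ALDOA on chromosome 3 did not pass, with 259.5 ± 48.7 CPM at 3 dpf, against 223 ± 23.9 CPM at 5 dpf (log2 fold change -0.22, edgeR adjusted p = 0.491). ALDOC on chromosome 15, with 21 counts over the 3 dpf libraries and 37 over the 5 dpf libraries, was too low to be tested.

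Among the triose steps, TPI1 on chromosome 16 and GAPDHS rose. TPI1 on chromosome 16 (ENSDARG00000040988) interconverts the triose phosphates and measured 176, 193 and 144 CPM at 3 dpf, against 703, 279.5 and 305 CPM at 5 dpf (log2 fold change 1.33, SE 0.38, edgeR adjusted p = 0.0344, and 0.78 without 5 dpf replicate 1). The minor TPI1 copy on chromosome 19 measured 1.81 ± 0.78 CPM at 3 dpf and 2.39 ± 0.0529 CPM at 5 dpf and did not pass (edgeR adjusted p = 0.442). GAPDHS (ENSDARG00000039914, chromosome 16, 45044642 to 45069882), a second gene for glyceraldehyde phosphate dehydrogenase that in mammals is known from sperm, measured 109, 84.1 and 147 CPM at 3 dpf, against 317, 392 and 247 CPM at 5 dpf. It rose without overlap (log2 fold change 1.49, SE 0.29, edgeR adjusted p = 0.00863). GAPDH itself, often used as a reference gene, measured 603, 810.2 and 511 CPM at 3 dpf, against 4783, 907 and 1229 CPM at 5 dpf. Its ages did not overlap, but it did not pass (log2 fold change 1.85, SE 0.63, edgeR adjusted p = 0.0592), and without 5 dpf replicate 1 its log2 fold change was 0.74 (edgeR adjusted p = 0.0318). The calls that ended were those of TPI1 on chromosome 16 without any 1 of the 3 dpf libraries (edgeR adjusted p from 0.0916 to 0.117) and of GAPDHS without 3 dpf replicate 1 (edgeR adjusted p = 0.0535).

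In the lower steps, both ENO1 copies rose while the most abundant enolase did not pass. ENO1 on chromosome 6 (ENSDARG00000013750, 40661703 to 40669406), of the enolase type found in most tissues, measured 3.58, 3.55 and 4.12 CPM at 3 dpf, against 26.1, 32.7 and 19.3 CPM at 5 dpf, and rose 6.93-fold (log2 fold change 2.79, SE 0.25, edgeR adjusted p = 0.00115). ENO1 on chromosome 23 measured 50.6, 47.1 and 52.3 CPM at 3 dpf, against 89.2, 119 and 90 CPM at 5 dpf (log2 fold change 0.99, SE 0.19, edgeR adjusted p = 0.00891). The call of that copy ended on leaving out either 3 dpf replicate 1 or 3 dpf replicate 2 (edgeR adjusted p of 0.057 and 0.0589). ENO3, the muscle type of mammals, held 91.4 ± 2.14% of the enolase level per kilobase at 3 dpf and 82.5 ± 10.5% at 5 dpf. It measured 731, 812 and 540.0 CPM at 3 dpf, against 2069, 521 and 678 CPM at 5 dpf, so that 5 dpf replicate 1 alone lay above the 3 dpf range (log2 fold change 0.65, edgeR adjusted p = 0.372, and -0.20 with an adjusted p of 0.467 without that library).

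Neither phosphoglycerate mutase gene and none of the 3 pyruvate kinase genes passed. PKLR, the liver-type pyruvate kinase and the main gene of the last glycolytic step here, measured 237, 229 and 199.5 CPM at 3 dpf, against 647, 270.0 and 269.7 CPM at 5 dpf (log2 fold change 0.83, SE 0.37, edgeR adjusted p = 0.125). It held 77.7 ± 5.16% of the pyruvate kinase level per kilobase at 3 dpf and 78.7 ± 4.58% at 5 dpf. pgam1a had an adjusted p of 0.133 and pgam1b of 0.377 from edgeR, with log2 fold changes of 0.82 and 0.20. PKM on chromosome 18 stood at 82.4 ± 15.9 and 142 ± 40.4 CPM, without overlap, and missed the threshold (log2 fold change 0.79, edgeR adjusted p = 0.0543). It was the only one of these 5 genes with an unadjusted edgeR p under 0.05 (0.0181) and the one that DESeq2 called higher, while without 5 dpf replicate 1 its adjusted p was 0.0483. No phosphoglycerate kinase or pyruvate carboxylase gene is in the set. Genes with the symbols PGK2 and PC, looked up after the values were seen, did not pass (edgeR adjusted p = 0.0649 for PGK2 on chromosome 21, 0.175 for PC on chromosome 7 and 0.742 for PC on chromosome 21).

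Lactate dehydrogenase, which interconverts pyruvate and lactate, had a subunit gene that rose and a subunit gene that fell. LDHA (ENSDARG00000101251, chromosome 25, 25123385 to 25131755), the subunit that predominates in muscle of mammals, measured 135, 197 and 118 CPM at 3 dpf, against 605, 252 and 333 CPM at 5 dpf. LDHB (ENSDARG00000019644, chromosome 4, 16828752 to 16836006), the subunit of heart, measured 352, 385 and 297 CPM at 3 dpf, against 184, 194 and 195 CPM at 5 dpf. Neither gene overlapped between the ages. LDHA rose (log2 fold change 1.41, SE 0.38, edgeR adjusted p = 0.026) and LDHB fell (log2 fold change -0.85, SE 0.20, edgeR adjusted p = 0.0166). LDHA made up 28 ± 3.25% of their summed level per kilobase at 3 dpf and 63.4 ± 10.6% at 5 dpf. The LDHA call was lost on leaving out any 1 of the 3 dpf libraries (edgeR adjusted p from 0.0513 to 0.11), and the LDHB call on leaving out either 3 dpf replicate 1 or 3 dpf replicate 2 (edgeR adjusted p from 0.0801 to 0.0814).

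Of the glycogen synthase genes, the liver form fell and the other form rose. GYS2 (ENSDARG00000004904, chromosome 4, 16783972 to 16824556), the liver form of glycogen synthase, measured 10.6, 12.2 and 7.32 CPM at 3 dpf, against 2.23, 2.46 and 3.01 CPM at 5 dpf. GYS1 (ENSDARG00000016875, chromosome 3, 16722014 to 16750036), the form of muscle and most other tissues, measured 29.5, 34 and 27.6 CPM at 3 dpf, against 76.8, 51.3 and 56.3 CPM at 5 dpf. The ages of both genes were fully separate. GYS2 fell (log2 fold change -1.97, SE 0.28, edgeR adjusted p = 0.00356) and GYS1 rose (log2 fold change 1.02, SE 0.21, edgeR adjusted p = 0.0118). Per kilobase, GYS2 stood at 0.786 times GYS1 at 3 dpf and at 0.102 times at 5 dpf, as geometric means. The GYS1 call ended without 3 dpf replicate 1 (edgeR adjusted p = 0.0697).

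Genes of 2 further steps, which supply glucose units to glycogen, rose. UGP2 on chromosome 17 (ENSDARG00000008200, 24445818 to 24474703), which makes UDP-glucose, measured 30.7, 36 and 33.8 CPM at 3 dpf, against 233, 102 and 85 CPM at 5 dpf (log2 fold change 2.07, SE 0.39, edgeR adjusted p = 0.00811). pgm1 (ENSDARG00000013561), the phosphoglucomutase that links glycogen to glycolysis, measured 60.2, 69.1 and 56 CPM at 3 dpf, against 240.2, 96.4 and 102 CPM at 5 dpf (log2 fold change 1.24, SE 0.37, edgeR adjusted p = 0.0385). In both genes each 5 dpf library exceeded each 3 dpf library, with 5 dpf replicate 1 highest. Without that library the log2 fold changes were 1.49 for UGP2 and 0.69 for pgm1, and the pgm1 call was lost on leaving out any 1 of the 3 dpf libraries (edgeR adjusted p from 0.0981 to 0.131). The other UGP2 copy, on chromosome 1, measured 4.11 ± 0.464 CPM at 3 dpf and 4.19 ± 1.8 CPM at 5 dpf (edgeR adjusted p = 0.956).

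The branching enzyme had an active and a nearly silent copy. GBE1 on chromosome 15 (ENSDARG00000099524) measured 11.6, 12.2 and 12.1 CPM at 3 dpf, against 17.9, 20.1 and 17.2 CPM at 5 dpf, and rose (log2 fold change 0.62, SE 0.17, edgeR adjusted p = 0.0315), a call lost on leaving out any library other than 5 dpf replicate 1 (edgeR adjusted p from 0.0609 to 0.152). GBE1 on chromosome 10 had 4 counts over the 3 dpf libraries and 98 over the 5 dpf libraries and was not tested.

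Of the 4 glycogen phosphorylase genes, which release glucose phosphate from glycogen, 1 passed, beside 32.1% of all genes tested. PYGM on chromosome 7 (ENSDARG00000013317), a muscle-type copy, measured 6.51, 5.91 and 7.47 CPM at 3 dpf, against 9.64, 16.1 and 17.1 CPM at 5 dpf, and rose (log2 fold change 1.11, SE 0.27, edgeR adjusted p = 0.0185). The more abundant PYGB, of the brain type, measured 74.8, 88.8 and 63.7 CPM at 3 dpf, against 132, 88.4 and 111 CPM at 5 dpf, and did not pass (log2 fold change 0.55, edgeR adjusted p = 0.103). PYGL, the liver type, had overlapping ages (edgeR adjusted p = 0.302) and was called higher without 5 dpf replicate 1 (log2 fold change 0.99, edgeR adjusted p = 0.0268). PYGM on chromosome 21 stood at 48 ± 16.9 and 49.9 ± 23.4 CPM (edgeR adjusted p = 0.93). The call of PYGM on chromosome 7 ended on leaving out any 1 of replicates 1 and 2 at 3 dpf and 2 and 3 at 5 dpf (edgeR adjusted p from 0.0621 to 0.0842).

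The regulators of phosphofructokinase are enzymes that make and remove fructose-2,6-bisphosphate, an activator of glycolysis and inhibitor of gluconeogenesis. pfkfb4a (ENSDARG00000055540, chromosome 11, 34555036 to 34577106) measured 21.9, 21.1 and 22 CPM at 3 dpf, against 61, 50.2 and 40.3 CPM at 5 dpf, and rose without overlap (log2 fold change 1.22, SE 0.20, edgeR adjusted p = 0.00551). PFKFB4 on chromosome 6, a copy outside the 53 genes, was looked up after the values were seen. It averaged 77 ± 14.6 and 56.7 ± 5.02 CPM, without overlap, and did not pass (log2 fold change -0.44, edgeR adjusted p = 0.133). PFKFB3 (ENSDARG00000001953, chromosome 4, 25472505 to 25485404) measured 673, 639 and 182 CPM at 3 dpf, against 769.5, 178 and 82.3 CPM at 5 dpf. It thus had the highest and the lowest values of the 6 libraries both at 5 dpf, and 3 dpf replicate 3 was close to 5 dpf replicate 2. With all libraries it did not pass (log2 fold change -0.54, SE 0.82, edgeR adjusted p = 0.648). Without 5 dpf replicate 1 it was called lower (log2 fold change -1.93, edgeR adjusted p = 0.0276), and likewise without both that library and 3 dpf replicate 3 (log2 fold change -2.36, edgeR adjusted p = 0.0015).

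All 3 genes of fructose and galactose entry had separate ages, as had 50.3% of all genes tested in either direction. Of the 3, 1 passed, beside 32.1% of all genes tested. galk1, galactokinase, measured 3.76, 5.78 and 4.5 CPM at 3 dpf, against 11.1, 6.82 and 8.33 CPM at 5 dpf, and rose (log2 fold change 0.90, SE 0.28, edgeR adjusted p = 0.0433). KHK, the ketohexokinase that phosphorylates fructose, measured 8.09, 12.6 and 11.5 CPM at 3 dpf, against 54.2, 17.1 and 16.1 CPM at 5 dpf (log2 fold change 1.44, SE 0.49, edgeR adjusted p = 0.0577). GALT, the uridylyltransferase of galactose entry, averaged 6.84 ± 0.686 CPM at 3 dpf and 13.6 ± 7.26 CPM at 5 dpf (log2 fold change 0.99, edgeR adjusted p = 0.074). In each of the 3 the highest library was 5 dpf replicate 1. Without that library KHK was called higher (log2 fold change 0.64, edgeR adjusted p = 0.0437), and the galk1 call was lost on leaving out any 1 of the 3 dpf libraries or 5 dpf replicate 3 (edgeR adjusted p from 0.0697 to 0.172).

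In many members 5 dpf replicate 1 stood apart from the other 5 dpf libraries. CPM in 5 dpf replicate 1 was at least 2-fold above the mean of 5 dpf replicates 2 and 3 in 16 of 51 members (31.4%, against 15.1% of all genes), and at least 2-fold below it in 9 (17.6%, against 18.3%). The high members included PCK1, GAPDH, ENO3, KHK, PFKFB3 and G6PC1 on chromosome 12. The low ones included the PFKM copies, ALDOA on chromosome 12, PKM on chromosome 25 and GPI on chromosome 18. Without 5 dpf replicate 1, 6 members that had not passed did so, GAPDH, PKM on chromosome 18, PYGL and KHK as higher and PFKFB3 and ALDOA on chromosome 12 as lower. The untested copy GBE1 on chromosome 10 was then also tested and called higher (edgeR adjusted p = 0.00777).

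**Figure D4:**
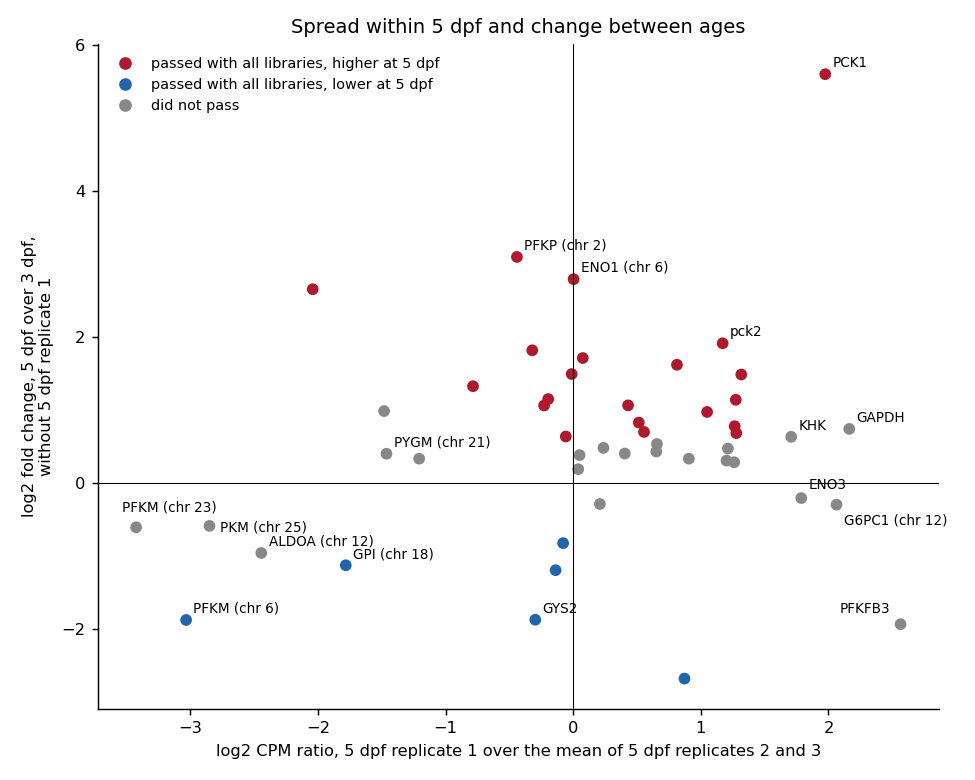
For 49 tested members, the log2 CPM ratio of 5 dpf replicate 1 to the mean of 5 dpf replicates 2 and 3 (horizontal) against the log2 fold change, 5 dpf over 3 dpf, without 5 dpf replicate 1 (vertical), coloured by the call with all libraries. PCK1 lies high on the right, at 5.60, PFKP on chromosome 2 and ENO1 on chromosome 6 lie high near the vertical line, and PFKFB3 lies low on the far right at -1.93.

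The 3 dpf libraries were not equally distant from 5 dpf. Among the 28 members called, the 3 dpf library nearest to the 5 dpf mean was replicate 3 in 14 (50%), replicate 2 in 13 and replicate 1 in 1. Over all 7194 genes called it was replicate 3 in 4016 (55.8%), replicate 2 in 2071 and replicate 1 in 1107.

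In 6 members, chosen after their values were seen, the highest and the lowest library were those of the summed skeletal muscle markers. That list has 18 genes, of which 16 were tested, 2 called higher and 2 lower. The share of all genes with the same highest and lowest library is not given here. ALDOA on chromosome 12 (ENSDARG00000034470) measured 19.8, 18.6 and 28.5 CPM at 3 dpf, against 2.11, 12.3 and 10.6 CPM at 5 dpf. PKM on chromosome 25 (ENSDARG00000099860) measured 13.6, 11.8 and 20.6 CPM at 3 dpf, against 1.41, 10 and 10.4 CPM at 5 dpf. PFKM on chromosome 23 (ENSDARG00000014179) measured 3.12, 2.31 and 4.85 CPM at 3 dpf, against 0.21, 1.92 and 2.58 CPM at 5 dpf. Like the marker sum, each was highest in 3 dpf replicate 3 and lowest in 5 dpf replicate 1. The same held for PFKM on chromosome 6, GPI on chromosome 18 and PYGM on chromosome 21. Otherwise PYGM on chromosome 21 departed from the marker sum. It measured 62.1 and 64.7 CPM in 5 dpf replicates 2 and 3, above the 41.2 and 35.5 CPM of 3 dpf replicates 1 and 2. Of these 6, PFKM on chromosome 6 and GPI on chromosome 18 are among the 6 members called lower, and ALDOA on chromosome 12 was called lower without 5 dpf replicate 1 (log2 fold change -0.96, edgeR adjusted p = 0.0124). Other genes of muscle type in mammals went against the marker sum. ENO3 was highest in 5 dpf replicate 1, at 2069 CPM, and PYGM on chromosome 7 and FBP2, which is not a member, rose. The part of muscle cells in these values was not tested.

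**Figure D5:**
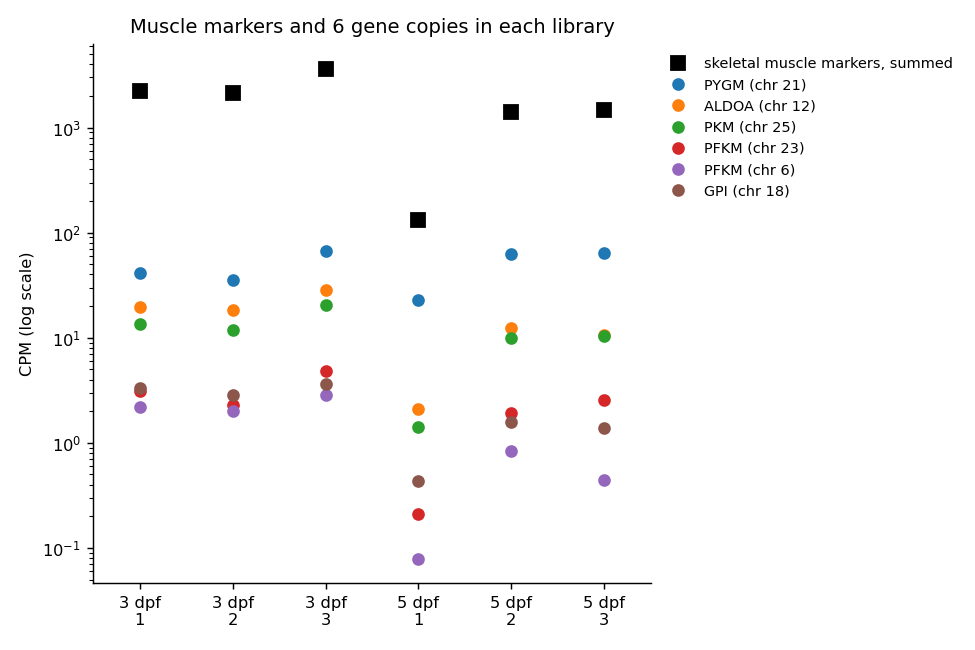
CPM on a log scale in the 6 libraries of the 18 skeletal muscle markers summed (black squares) and of 6 members (coloured circles). The marker sum drops to 133 CPM in 5 dpf replicate 1, where all 6 members, chosen after their values were seen, also have their lowest value.

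In 10 of 51 tested members (19.6%) the highest library was 5 dpf replicate 2, near the 17.8% of all genes tested, so the count does not set the members apart. The sums of several other marker lists were also highest in that library. Smooth muscle and mesenchyme markers, 11 genes of which 9 were called higher, summed to 470 to 753 CPM at 3 dpf and to 1219 to 2098 CPM at 5 dpf. The 8 pancreatic endocrine markers, of which 3 were higher, summed to 262 to 425 CPM and 580.0 to 799 CPM, and the 10 neuron markers, of which 3 were higher, to 71 to 124 CPM and 242 to 351 CPM. Over all genes tested 18.1% were called higher. In the endocrine list gcga averaged 10.4 ± 5.12 and 272 ± 40.8 CPM, PCSK2 24.2 ± 10.2 and 167 ± 88.7 CPM, and ins 0.849 ± 0.157 and 3.94 ± 1.67 CPM. NEUROD1 and ISL1 had lower means at 5 dpf and did not pass. In the neuron list vipb averaged 0.217 ± 0.0824 and 128 ± 39.3 CPM, while ELAVL3 and gap43 had lower means at 5 dpf and did not pass. Pancreatic acinar markers went from 1.67 to 2.4 CPM up to 279.6 to 942 CPM, with all 9 called higher. The 9 leukocyte markers, of which 5 were higher, summed to 6.57 to 10.7 CPM and 18.1 to 44.9 CPM. These 5 sums were highest in 5 dpf replicate 2. So was that of the 10 notochord and cartilage markers, at 348 CPM, though its ages overlapped (280 to 322 CPM at 3 dpf and 155 to 348 CPM at 5 dpf). In that list 5 genes were called higher, and an SHH copy (ENSDARG00000068567) fell from 233 ± 13.0 to 53.3 ± 14.0 CPM (edgeR adjusted p = 0.00224). The members highest in 5 dpf replicate 2 included ALDOC on chromosome 21, GAPDHS, PFKP on chromosomes 2 and 24, both ENO1 copies and GBE1 on chromosome 15, all called higher, and HK1 and PYGL, which did not pass. The part of other cell types in the changes of these members was not tested.

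The balance of isozymes, and that of fructose bisphosphatase to the opposing phosphofructokinase, was compared in 8 log2 ratios of level per kilobase. The ages were fully separate in 4. These were LDHB over LDHA, fructose bisphosphatase over phosphofructokinase, GYS2 over GYS1 and PCK1 over pck2. The log2 ratio of fructose bisphosphatase to phosphofructokinase was 1.64, 1.95 and 1.54 at 3 dpf and 3.98, 2.21 and 2.61 at 5 dpf. Each of the 4 had p = 0.1 by the exact two-sided permutation test, the smallest that 3 libraries against 3 allow, and 0.2 after Benjamini-Hochberg adjustment over the 8. PKLR over PKM and PYGM over PYGL and PYGB overlapped between the ages, with exact permutation p of 0.9 and 0.7.

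Around the 53 members, 147 further genes of hexose metabolism on 7 lists were examined, of which 146 were tested, 38 were higher and 22 lower. That is 41.1%, against 32.1% of all genes tested, with 15.1% lower beside 14.1% of all genes. Hexose transporters had 8 of 14 higher (57.1%, against 18.1% of all genes tested) and 1 lower (7.14%, against 14.1%). SLC5A1, the sodium-glucose cotransporter of the brush border, measured 12.7, 26.4 and 9.68 CPM at 3 dpf, against 391, 79.5 and 111 CPM at 5 dpf, and rose (log2 fold change 3.57, SE 0.70, edgeR adjusted p = 0.0092), or by a log2 fold change of 2.56 without 5 dpf replicate 1. SLC5A9, another cotransporter of the family, rose in mean CPM from 3.63 ± 1.23 to 20.8 ± 20.4 (log2 fold change 2.52, edgeR adjusted p = 0.0264, and 1.33 without 5 dpf replicate 1), a call lost on leaving out any 1 of the 3 dpf libraries (edgeR adjusted p from 0.0606 to 0.102). Of 11 genes of other hexose metabolism, 5 were higher (45.5%, against 18.1% of all genes tested) and the rest did not pass. An AKR1B1 copy on chromosome 4 (ENSDARG00000006215), an aldose reductase gene, rose in mean CPM from 35.3 ± 2.02 to 399.7 ± 207 (log2 fold change 3.50, edgeR adjusted p = 0.0019).

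Other triose and glycolytic enzymes had 6 of 23 higher and 2 lower, 34.8% and so near the 32.1% of all genes tested. gpd1c, a glycerol phosphate dehydrogenase, rose in mean CPM from 59 ± 5.25 to 228 ± 164 (log2 fold change 1.95, edgeR adjusted p = 0.0184, and 1.18 without 5 dpf replicate 1), while GPD1 on chromosome 22 fell in mean CPM from 66.8 ± 11 to 40.5 ± 5.98 (log2 fold change -0.72, edgeR adjusted p = 0.0328). FBP2, the muscle-type fructose bisphosphatase of mammals, rose in mean CPM from 1.41 ± 0.661 to 9.8 ± 5.05 (log2 fold change 2.80, edgeR adjusted p = 0.00705). The pentose phosphate pathway, which branches off at glucose phosphate, had 1 of 8 higher and 2 lower, 37.5% and so near the 32.1% of all genes tested. RPIA (log2 fold change -0.73) and prps1b (log2 fold change -0.83) of the ribose branch fell. The calls of gpd1c, GPD1, RPIA and prps1b each ended without 3 dpf replicate 1 and without 3 dpf replicate 2, with edgeR adjusted p of up to 0.0796, 0.129, 0.108 and 0.0841, and those of all but prps1b were also lost on leaving out at least 1 further library.

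Genes of pyruvate fate and lactate export were 4 higher and 4 lower among 23 tested, 34.8% and so near the 32.1% of all genes tested. SLC16A1 on chromosome 8, a monocarboxylate transporter that carries lactate, measured 99.9, 105 and 70.3 CPM at 3 dpf, against 26.7, 22.9 and 30.8 CPM at 5 dpf, and fell (log2 fold change -1.78, SE 0.23, edgeR adjusted p = 0.00289). PDK2 on chromosome 19, a kinase that switches pyruvate dehydrogenase off, rose in mean CPM from 18.9 ± 5.85 to 124 ± 79.5 (log2 fold change 2.71, edgeR adjusted p = 0.00741). PDP2, a phosphatase that switches the same enzyme on, fell in mean CPM from 8.52 ± 1.32 to 2.38 ± 1.62 (log2 fold change -1.83, edgeR adjusted p = 0.0313), a call lost on leaving out any 1 of the 3 dpf libraries or 5 dpf replicate 2 (edgeR adjusted p from 0.0599 to 0.0946).

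Beyond the members, glycogen handling had 7 of 32 genes higher and 2 lower, 28.1% against 32.1% of all genes tested. PHKA2, a subunit of the kinase that activates glycogen phosphorylase, rose in mean CPM from 11.3 ± 1.84 to 36 ± 4.21 (log2 fold change 1.67, edgeR adjusted p = 0.00255). PHKG1 on chromosome 21, the catalytic subunit, rose in mean CPM from 8.62 ± 4.07 to 26 ± 7.55 (log2 fold change 1.59, edgeR adjusted p = 0.0171). PPP1R3B, which brings protein phosphatase to glycogen and in mammals favours glycogen synthesis in liver, measured 13.5, 18.7 and 10.3 CPM at 3 dpf, against 1.58, 1.05 and 1.94 CPM at 5 dpf, and fell (log2 fold change -3.22, SE 0.35, edgeR adjusted p = 0.00186). GSK3A, a kinase that inhibits glycogen synthase, had 2 copies. The copy ENSDARG00000015681 fell in mean CPM from 118 ± 3.76 to 65.7 ± 3.31 (log2 fold change -0.84, edgeR adjusted p = 0.00941). The other copy was not called lower. The call of the GSK3A copy that fell ended without 3 dpf replicate 1 (edgeR adjusted p = 0.0596) and that of PHKG1 on leaving out any 1 of replicates 1 and 2 at 3 dpf and 3 at 5 dpf (edgeR adjusted p from 0.0547 to 0.0796).

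Of 35 genes that control the pathway, 11 were lower (31.4%, against 14.1% of all genes tested) and 7 higher (20.0%, against 18.1%). hif1aa, a hypoxia-inducible factor gene, rose in mean CPM from 0.88 ± 0.225 to 7.49 ± 2.06 (log2 fold change 3.09, edgeR adjusted p = 0.00196). FOXO1 on chromosome 10, a transcription factor that insulin signalling holds back, measured 33, 30.2 and 19.1 CPM at 3 dpf, against 7.44, 8.32 and 5.66 CPM at 5 dpf, and fell (log2 fold change -1.94, SE 0.27, edgeR adjusted p = 0.00354). The FOXO1 copy on chromosome 15 averaged 127 ± 9.47 CPM at 3 dpf and 86.4 ± 14.6 CPM at 5 dpf and did not pass (log2 fold change -0.55, edgeR adjusted p = 0.0677), but was called lower without 5 dpf replicate 1 (edgeR adjusted p = 0.00669). IGF1R on chromosome 7, the receptor for insulin-like growth factor, fell in mean CPM from 24.8 ± 11.3 to 7.62 ± 1.27 (log2 fold change -1.70, edgeR adjusted p = 0.0146), a call that ended on leaving out either 3 dpf replicate 1 or 3 dpf replicate 2 (edgeR adjusted p from 0.0552 to 0.0614).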

How the data were processed

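Total RNA from sorted cells was made into libraries and sequenced by the authors, who deposited raw counts per gene for 6 libraries. Per the file headers, featureCounts 1.6.3 counted fragments over exons by gene with strand setting 2, on Ensembl release 115 of GRCz11, and no normalization was applied to the deposited counts. Trimmomatic 0.38, STAR 2.7.11 and Subread 1.6.3 are listed in the submitters' processing notes. Near-identical copies can lose or exchange reads in such counts, so levels of gene copies are uncertain. Of 32520 genes, 29201 had a symbol, and 6314 share theirs with another gene.

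Counts were tested with edgeR 4.0.16 in R 4.3.3 (quasi-likelihood F-test, two-sided, TMM scaling, age as the only term, Benjamini-Hochberg over all genes tested, threshold 0.05) after filterByExpr with a minimum count of 10 and total of 15. The standard error is the log2 fold change over the root of F. CPM are scaled by TMM factors, which were 1.021, 1.001 and 1.112 at 3 dpf and 0.612, 1.136 and 1.266 at 5 dpf. Levels of different members are compared only as CPM per kilobase of exon, while levels and sums of cell type markers are in CPM. Ratios were tested by exact permutation over libraries. Other settings tried were scaling by RLE, by upper quartile or by library size, other filters, DESeq2 1.42.0, a replicate block, no mitochondrial genes and leaving libraries out.

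The members, lists and tests were chosen with earlier results of these data known. Of the members, up to 4 called per enzyme step, the most abundant of each step and copies called in opposite directions were named by rule, as were up to 2 called genes per direction on each wider list at 5 CPM or more. The called members PFKP on chromosome 24, fbp1a, fbp1b and GBE1 on chromosome 15 fell outside that rule and were described after their values were seen. The same holds for the remaining members that were not called. Libraries are pools, so p-values cover only how pooled samples vary. A few genes and ratios are counted in the totals and are not reported here. No sequences are shown.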

Additional observations from a re-analysis of the deposited data

How the results depend on the processing

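Over the fits that left out 1 library, or both 5 dpf replicate 1 and 3 dpf replicate 3, members called higher ranged from 9 to 27 and members called lower from 2 to 10. Over all genes these ranges were 1777 to 6294 higher and 1226 to 5608 lower, and over the wider lists 12 to 50 higher and 9 to 32 lower. The lowest of these counts all came without 3 dpf replicate 1, and for members called lower also without 3 dpf replicate 2. With all libraries 4045 genes were higher and 3149 lower, and of the members 22 were higher and 6 lower. Calls thus dropped over all genes as well as among the members when 3 dpf replicate 1 was left out. With library size as the only scaling, 2 members were called lower beside 16 higher, 2512 genes were higher and 1337 lower, and on the wider lists 19 were higher and 7 lower. Of the calls among members 78.6% were higher, against 87.1% with upper quartile scaling and 88.9% with library size alone. Over all genes that share moved from 56.2% to 65.3% in both. With upper quartile scaling the median over all genes went from 0.09 to 0.22 in log2 fold change.

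G6PC1 on chromosome 12 reversed to -0.62 without both libraries and to -0.295 without 5 dpf replicate 1 alone. Its leave-one-out values ran from -0.295 to 1.05. Without both, the difference in the log2 ratio was -0.39 for PKLR over PKM and 0.46 for PYGM over PYGL and PYGB. Leaving out single libraries gave up to 0.25 and down to -0.80 for these. The causes of these shifts were not tested. Equal replicate numbers were not paired, since deviations of same-numbered libraries correlated at 0.092, -0.217 and 0.193 and 2 of 6 libraries correlated best with their own number. A replicate block gave 19 members higher and 6 lower, so that 76.0% of the calls among members were higher, against 58.5% over all genes. The share of all genes called in that fit is not given here.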
